A study of Mus musculus with 10 samples.

Results

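The matrix metalloproteinases (MMPs), the ADAM and ADAMTS proteases and the tissue inhibitors of metalloproteinases (TIMPs) were examined in hypertrophied and quiescent hepatic stellate cells. The members were all entries of the deposited table whose gene symbol begins with Mmp, Adam or Timp followed by a number, or with Adamts. This rule gave 85 members among the 25233 entries with a symbol. Of these, 17 are secreted MMPs, 6 membrane-type MMPs, 34 ADAMs, 19 ADAMTS proteases, 5 ADAMTS-like proteins and 4 TIMPs. All cells came from livers of male C57BL/6J mice. The hypHSCs were from mice on CDAHFD, which is high in fat, lacks choline, is low in methionine and causes steatohepatitis with fibrosis. The diet had lasted 13 weeks for hypHSC 1 and 2 (19 weeks of age) and 12 weeks for hypHSC 3, 4 and 5 (18 weeks of age). The qHSCs were from mice on the standard diet, aged 36 weeks for qHSC 1, 2 and 5 and 34 weeks for qHSC 3 and 4. Cells of both groups were freed by enzymes, enriched on a density gradient and sorted by their own retinoid fluorescence, in a green gate for hypHSCs and a blue gate for qHSCs. Collagenase and dispase were stronger for the CDAHFD livers, and for these livers antibiotics were added to all buffers but that of the first perfusion. Diet, age, digestion, antibiotics and gate therefore cannot be told apart. Each group has 5 libraries, each from a preparation chosen on RNA quality. The hypHSC preparations were chosen from a larger number of samples than of mice, so n counts preparations and p-values measure the spread between preparations.

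These proteins cut or protect the matrix around cells. MMPs are made as inactive precursors and degrade collagens, elastin and other matrix proteins, membrane-type MMPs do so at the cell surface, and TIMPs bind and block the active enzymes. ADAMs are membrane proteases that shed cytokines, growth factors and receptors, whereas ADAMTS proteases are secreted and process procollagens, proteoglycans or von Willebrand factor. Stellate cells and macrophages are both known sources of these enzymes and inhibitors in fibrotic liver.

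Values are normalized counts, that is reads per gene divided by the size factor of the library. The hypHSC libraries held 30534719 to 43283589 reads on genes with a symbol, the qHSC libraries 35640104 to 47317028. A count of 3 reads, below which a gene was held to be undetected, equals 2.25 to 4.54 normalized counts. The labelled cell type was checked on 13 stellate cell markers, which include *Lrat*, *Des* and *Reln*. Their summed level was 33788 to 67933 normalized counts in hypHSCs and 1388167 to 2267192 in qHSCs, and 13 of 13 were called lower in hypHSCs. Core macrophage markers, for which 15 of 16 were called higher, summed to 1195098 to 1707056 in hypHSCs and to 7525 to 131779 in qHSCs. Among qHSCs that list was highest in qHSC 4 (131779) and qHSC 1 (58462). hypHSC 4 and hypHSC 5 stood apart from the other hypHSC libraries for several members described here, so values without both are given where a call rests on them. In bulk samples, fewer cells of a type and less RNA per cell cannot be told apart.

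Of the 85 members, 49 reached 10 normalized counts in 5 or more of the 10 libraries and were tested with limma on log2(normalized count + 1). A call needed a log2 fold change of 1 or more in either direction and a Benjamini-Hochberg adjusted p, over all 14630 genes tested, not above 0.05. Higher calls in hypHSCs numbered 13 members, where 17.8% of all genes tested were called higher, and lower calls numbered 23, where 21.7% of all genes were called lower. For 11 members every hypHSC library lay above every qHSC library, against 17.6% of all genes, and for 19 every hypHSC library lay below, against 22.0% of all genes. The median log2 fold change of the 49 was -0.72, beside -0.20 over all genes tested. Their range, from -8.68 to 11.74, spanned most of that of all genes (-11.27 to 12.60). The families moved in different directions. Secreted MMPs had 7 higher and 2 lower calls among 10 tested (median 5.46), ADAMs 4 higher and 5 lower among 14 (median 0.23), and ADAMTS proteases 0 higher and 10 lower among 13 (median -3.26). ADAMTS-like proteins had 1 higher and 3 lower among 5 (median -2.31), membrane-type MMPs 0 higher and 2 lower among 4 (median -1.43), and TIMPs 1 higher and 1 lower among 3 (median -0.09). Without hypHSC 4 and 5, an alternative added after the data were seen, 16 members were called higher and 20 lower. For the ADAMTS proteases and the membrane-type MMPs, 0 were higher at an unadjusted limma p under 0.05, and DESeq2 and edgeR called 0 higher as well. Because the filter passes a gene that is high in 1 group only, these counts cover the members that passed it and not the whole families.

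**Figure D1:**
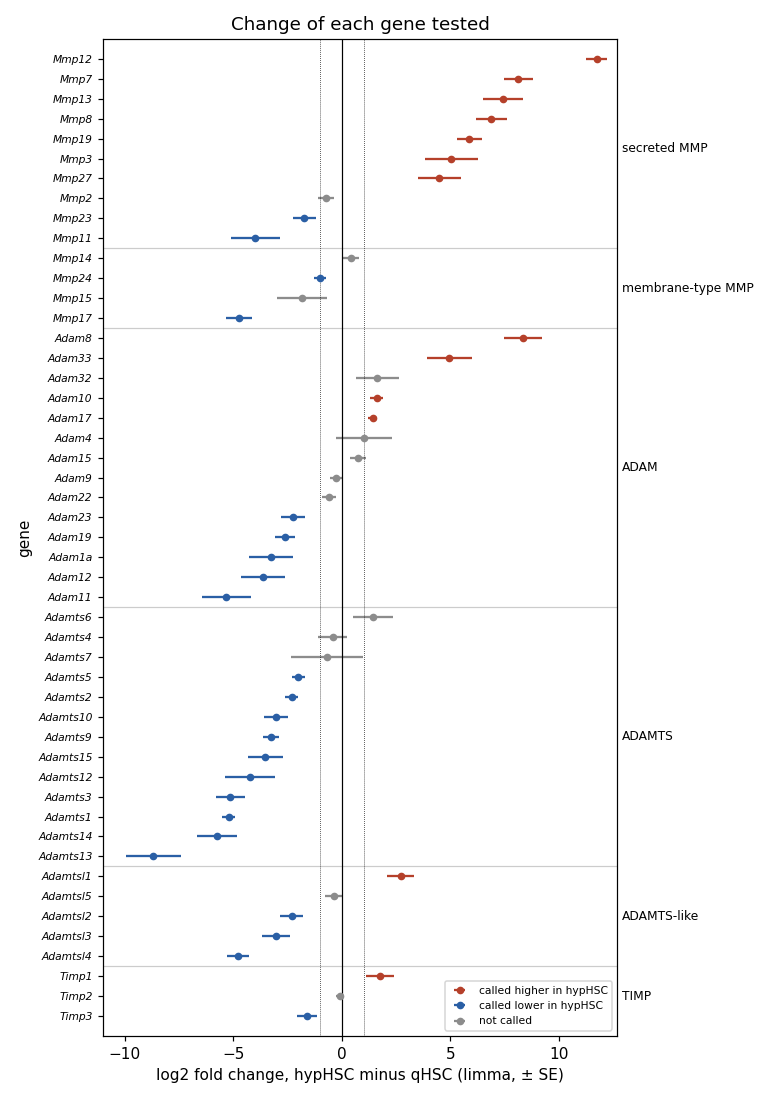
Log2 fold change (hypHSC minus qHSC, limma, horizontal axis) of each of the 49 genes tested, by family, with the standard error as bars. The 13 red points were called higher in hypHSCs and the 23 blue points lower, with the secreted MMPs reaching 11.74 and the ADAMTS proteases -8.68.

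The scaling of the libraries bears on such counts. Scaled to the same total, the median log2 fold change of all genes shifted by -0.35, with 2022 genes called higher and 4225 lower in place of 2602 and 3177. Scaled on *Hprt*, *Pgk1* and *Actb* it shifted by -0.93, with 1472 higher and 6990 lower. The ADAMTS proteases had 0 higher and 10 lower calls under these scalings, under TMM factors and under upper-quartile scaling, and the secreted MMPs had 7 higher and 2 or 3 lower. The median of the ADAMs turned to -0.12 with equal totals and to -0.70 with the reference genes, so no direction is given for that family.

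**Figure D2:**
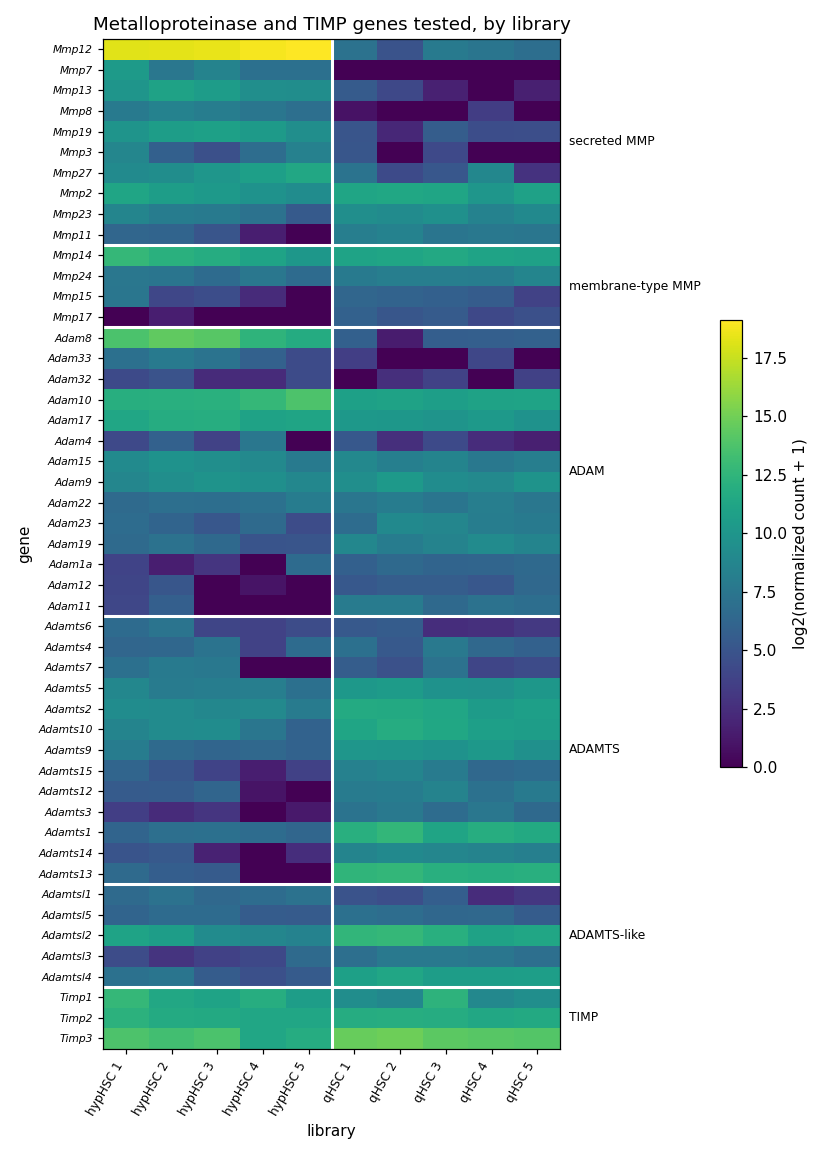
Log2(normalized count + 1) of the 49 genes tested (rows, by family) in each of the 10 libraries (columns). *Mmp12* is the brightest row in hypHSCs, the secreted MMPs above *Mmp2* are dark in qHSCs, and most ADAMTS rows are brighter in qHSCs, with several darkest in hypHSC 4 and hypHSC 5.

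The secreted MMPs called higher lay largely in 1 gene cluster on chromosome 9 (chr9:7272514-7699586, GRCm39). It holds 10 of the 85 members, of which 6 were tested, and 6 of these 6 were called higher, where 17.8% of all genes tested were. Each of the 6 reached 10 normalized counts in every hypHSC library and so passed the filter on that group alone. This count therefore covers genes that a high hypHSC level let through. *Mmp12* encodes macrophage metalloelastase, which degrades elastin. In the hypHSC libraries 1 to 5 it had 314232, 334781, 367986, 473540 and 564856 normalized counts, and in the qHSC libraries 148, 29.0, 239, 170 and 121. The groups are separated by 3 orders of magnitude, and each hypHSC library exceeded every qHSC library. The log2 fold change was 11.74 ± 0.47 (SE; limma, adjusted p = 3.89e-08; exact two-sided permutation p = 0.00794, the smallest that 5 against 5 allows). *Mmp12* took 0.969% ± 0.173 (SD, n = 5) of the reads on genes in hypHSCs and 0.000438% ± 0.000252 in qHSCs. By normalized count, which takes no account of gene length, it ranked between 8 and 12 among all genes of a hypHSC library. In the qHSC libraries it ranked between 7978 and 12435.

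*Mmp13*, the main collagenase of rodents for fibrillar collagens, had 977, 2031, 1482, 689 and 676 normalized counts in the hypHSC libraries and 44.4, 17.0, 2.36, 0 and 2.25 in the qHSC libraries. qHSC 1 and 2 were the only qHSC libraries clearly above the floor, and the groups did not overlap (log2 fold change 7.43 ± 0.91 SE, limma adjusted p = 6.06e-05). *Mmp8*, the collagenase known from neutrophil granules, had 233, 351, 278, 178 and 123 in hypHSCs, and 0.91, 0, 0, 10.3 and 0 in qHSCs. Its highest qHSC library was qHSC 4. The log2 fold change was 6.89 ± 0.73 (limma adjusted p = 2.12e-05). Of 11 neutrophil markers, 5 were tested and 4 of these were called higher. The list summed to 1907 to 8142 normalized counts in hypHSCs and 21 to 418 in qHSCs, the highest again in qHSC 4. *Retnlg*, *Ngp* and *Camp* of that list were at 0 in every qHSC library. In hypHSCs, *Camp* was read in hypHSC 1 only (8.09) and *Ngp* in hypHSC 1 and 2 only (37.7 and 13.5). *Ly6g*, *Elane* and *Mpo* had at most 14.97 in any library. The part of neutrophils in the *Mmp8* value was not tested.

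*Mmp7*, matrilysin, which in the liver is known from bile duct epithelium, had 1335, 195, 367, 132 and 133 normalized counts in hypHSCs and no read in any qHSC library. Against the floor of 3 reads per library it was at least 174-fold higher, or at least 82.9-fold without hypHSC 1 (limma log2 fold change 8.13 ± 0.67, adjusted p = 3.56e-06). hypHSC 1 was the highest library for *Mmp7*. It was also the highest for the cholangiocyte markers, which summed to 6999 in hypHSC 1, to 797 to 1783 in the other hypHSC libraries and to 4.72 to 56.1 in qHSCs, with 4 of 4 tested called higher and *Cldn4* at 0 in every qHSC library. Among hypHSC libraries, hypHSC 1 was also highest for summed mesothelial (3844), quiescent stellate cell (67933) and T and NK cell (728) markers. The same held for activated stellate cell and myofibroblast markers (52717). The part of any of these cells in the *Mmp7* value was not tested.

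*Mmp27*, a little-studied relative of the stromelysins, had 573, 665, 1061, 1808 and 2803 in the hypHSC libraries and 153, 18.7, 35.4, 462 and 5.99 in the qHSC libraries. The groups did not overlap, but qHSC 4 reached 462 and qHSC 1 reached 153 (log2 fold change 4.49 ± 0.99, limma adjusted p = 0.00328). The same 2 libraries held the most resident Kupffer cell markers among qHSCs, 44861 and 19247 normalized counts against 1270 to 1920 in the others, beside 18347 to 34538 in hypHSCs. Whether these markers bear on *Mmp27* was not tested. *Mmp3*, stromelysin-1, was higher too (192 ± 179 against 10.2 ± 15, SD, n = 5; log2 fold change 5.04 ± 1.23, limma adjusted p = 0.00576), with groups that overlapped, since hypHSC 3 had 24.1 and qHSC 1 had 33.5.

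The other 4 genes of the cluster did not pass the filter. *Mmp1b*, a rodent paralog of the interstitial collagenase, had 28.3, 78.7, 34.9, 8.39 and 86.2 normalized counts in hypHSCs and no read in qHSCs, at least 19-fold higher against the floor. Other genes cover 10.8% of its exon bases, antisense *Mmp12* the largest part, and the libraries do not keep the strand. *Mmp10* had reads in hypHSC 1 (16.2) and hypHSC 3 (59.0) only, *Mmp20* in hypHSC 1 only (8.09), and *Mmp1a* in no library.

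**Figure D3:**
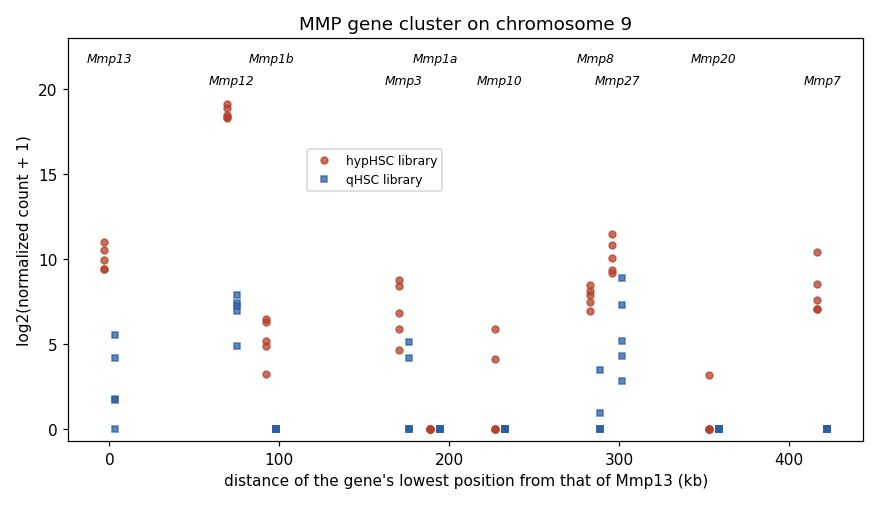
Log2(normalized count + 1) in each library (vertical axis) of the 10 MMP genes of the chromosome 9 cluster against the distance of each gene's lowest position from that of *Mmp13* (kb, horizontal axis). Red circles are hypHSC and blue squares qHSC libraries, drawn slightly apart. *Mmp12* stands highest in hypHSCs, the qHSC libraries are at 0 for *Mmp7*, and *Mmp1a* is at 0 in all libraries.

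The promoters of the cluster genes, of the other members and of all genes were searched for 3 short motifs on both strands. The windows ran from 250 bases before to 50 bases after each annotated start (RefSeq, GRCm38.p6). Of the members, 54 matched the promoter table by symbol. The motif TGANTCA, bound by AP-1 factors, was in a window of 8 of the 10 cluster genes, in 5 of the other 44 members matched (11.4%) and in 8.97% of all 27025 genes. The motif TATAAA was in 9 of the 10 and in 15.7% of all genes, and GAGGAAG, the core bound by PU.1, was in 3 of the 10 (*Mmp12*, *Mmp7* and *Mmp8*) and in 15.4% of all genes. The cluster genes are tandem paralogs, so their promoters are related sequences. The motif TGANTCA was also in the windows of *Mmp1a*, *Mmp10* and *Mmp20*, which had few or no reads, and its letters were not in the windows of *Mmp8* and *Mmp27*, which were called higher.

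The 140 bases before the start are shown for the 6 called genes of the cluster, on the plus strand 5′ to 3′, to let the shared letters and their spacing be seen. Capitals mark TGANTCA and TATAAA. The positions in GRCm38.p6 are chr9:7272374-7272513 for *Mmp13*, chr9:7347234-7347373 for the downstream of 2 annotated starts of *Mmp12*, chr9:7445682-7445821 for *Mmp3*, chr9:7691950-7692089 for the upstream of 2 starts of *Mmp7*, chr9:7558289-7558428 for *Mmp8* and chr9:7571256-7571395 for *Mmp27*.
Mmp13: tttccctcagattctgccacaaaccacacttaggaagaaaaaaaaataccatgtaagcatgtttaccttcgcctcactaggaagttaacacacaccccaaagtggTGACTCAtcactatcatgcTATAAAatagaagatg
Mmp12: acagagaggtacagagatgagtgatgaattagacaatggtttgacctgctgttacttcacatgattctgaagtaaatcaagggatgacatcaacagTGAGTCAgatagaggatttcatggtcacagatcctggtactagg
Mmp3: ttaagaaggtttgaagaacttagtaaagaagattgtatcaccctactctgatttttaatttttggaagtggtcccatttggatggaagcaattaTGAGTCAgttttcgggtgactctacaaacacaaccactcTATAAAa
Mmp7: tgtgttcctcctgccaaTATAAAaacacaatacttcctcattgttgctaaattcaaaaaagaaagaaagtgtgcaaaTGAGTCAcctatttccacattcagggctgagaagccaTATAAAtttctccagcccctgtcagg
Mmp8: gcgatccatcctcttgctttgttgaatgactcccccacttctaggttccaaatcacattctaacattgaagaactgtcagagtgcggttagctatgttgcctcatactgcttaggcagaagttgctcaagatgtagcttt
Mmp27: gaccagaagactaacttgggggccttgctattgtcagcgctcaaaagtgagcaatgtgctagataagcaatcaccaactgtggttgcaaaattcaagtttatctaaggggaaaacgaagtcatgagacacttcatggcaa
Counted back from the last base before the start, TGANTCA began at position -35 in *Mmp13*, -44 in *Mmp12*, -46 in *Mmp3* and -63 in *Mmp7*, each time upstream of a TATAAA. In *Mmp12* that TATAAA began 4 bases after the annotated first base, past the stretch shown. In *Mmp8* a TATAAA on the strand opposite to that shown spanned the annotated start, and GAGGAAG lay at -220, outside the stretch shown. The other start of *Mmp12* (window of chr9:7344147-7344446) held GAGGAAG at -87, on the opposite strand, and neither of the other motifs.

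Outside the cluster, *Mmp19*, a secreted MMP that acts on basement membrane proteins, was higher in hypHSCs (1294 ± 460 against 25.7 ± 16.8, SD, n = 5; log2 fold change 5.88 ± 0.59, limma adjusted p = 1.45e-05). Other genes cover 36.8% of its exon bases, antisense *Tmem198b* the largest part, and reads there cannot be told apart without strand. The gelatinases, which cut denatured collagen and the collagen of basement membranes, were not called. *Mmp2* had 2417, 1568, 1300, 859 and 616 normalized counts in the hypHSC libraries and 2421, 2674, 2373, 1051 and 1950 in the qHSC libraries. The ranges overlapped, with hypHSC 1 at the qHSC level (log2 fold change -0.72 ± 0.37, limma adjusted p = 0.135; exact two-sided permutation p = 0.127). *Mmp2* passed as lower with equal totals (-1.07), with the reference genes (-1.66) and with the 12-week hypHSCs only (-1.17). Other genes cover 24.3% of the *Mmp2* exon bases, antisense *Gm45472* the largest part. *Mmp9* did not pass the filter. It had 116, 16.6, 141, 2.10 and 0 in hypHSCs and 29.1 in qHSC 4, with no read in the other 4 qHSC libraries.

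*Mmp11*, stromelysin-3, was lower in hypHSCs (37.1 ± 37.4 against 236 ± 79.5; log2 fold change -3.99 ± 1.14, limma adjusted p = 0.0132). Its counts in hypHSC 4 and 5 were 2.10 and 0, whereas hypHSC 1 to 3 had 32.4 to 79.5, and without hypHSC 4 and 5 the log2 fold change was -1.97. *Mmp23*, which is held at the membrane before it is cut free, was lower as well (216 ± 139 against 589 ± 161; log2 fold change -1.73, adjusted p = 0.0182), and without hypHSC 4 and 5 it was at -0.99 and no longer called. *Mmp21* and *Mmp28* had at most 15.8 normalized counts in any library.

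Among the membrane-type MMPs, *Mmp14*, which encodes MT1-MMP, the activator of pro-MMP2 and a pericellular collagenase, was the most abundant. It had 6620, 4500, 3607, 2224 and 1115 normalized counts in hypHSCs and 2197, 2431, 2916, 2152 and 1977 in qHSCs. Its hypHSC values lay on both sides of the qHSC range, with hypHSC 5 lowest. The log2 fold change was 0.40 ± 0.40 (limma adjusted p = 0.431). It was 1.04 and called without hypHSC 4 and 5, -0.16 with the 12-week hypHSCs only and -0.54 with the reference genes, so no direction is given. *Mmp24*, MT5-MMP, had 193, 174, 103, 187 and 101 in hypHSCs and 224, 293, 291, 280 and 414 in qHSCs. The groups did not overlap and the log2 fold change of -1.01 ± 0.29 (adjusted p = 0.0149) was at the threshold of 1. It fell under that threshold in DESeq2 (-0.99), in edgeR (-0.93), with TMM factors (-0.97), with upper-quartile scaling (-0.90), with a pseudocount of 5 (-0.99), without hypHSC 4 and 5 (-0.96) and in 3 of 10 fits that left out 1 library (hypHSC 3, hypHSC 5 or qHSC 5, -0.89 to -0.88). *Mmp17*, MT4-MMP, had 2.07 normalized counts in hypHSC 2 and no read in the other 4 hypHSC libraries, beside 17.1 to 58.8 in qHSCs (log2 fold change -4.74 ± 0.62, adjusted p = 9.98e-05). *Mmp15* was not called (-1.84, adjusted p = 0.218). *Mmp16* was read in hypHSC 1 and 2 only, at 26.9 at most, and *Mmp25* reached 48.5 in hypHSC 1 and 6.74 in any other library.

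Of the ADAMs, *Adam8* showed the largest difference. It encodes a protease of myeloid cells that sheds adhesion molecules. The hypHSC libraries had 13082, 21876, 18102, 5445 and 3544 normalized counts and the qHSC libraries 56.1, 1.70, 52.0, 54.8 and 60.7. hypHSC 4 and 5 were the lowest of their group and still far above qHSCs, and qHSC 2 was the lowest library. The log2 fold change was 8.34 ± 0.87 (limma adjusted p = 1.92e-05). *Adam10*, the main sheddase of Notch, and *Adam17*, that of TNF and of EGF receptor ligands, were higher by less. *Adam10* had 4014, 4281, 4576, 6838 and 13948 in hypHSCs and 1865, 2088, 1698, 2025 and 2156 in qHSCs (1.60 ± 0.31, adjusted p = 0.00136). *Adam17* had 2597, 3725, 3872, 2063 and 2320 in hypHSCs, all above the qHSC range of 839 to 1287 (1.42 ± 0.22, adjusted p = 0.000274). With libraries scaled on the reference genes, *Adam10* (0.66) and *Adam17* (0.48) were not called. *Adam33*, a mesenchymal ADAM, had 131, 231, 151, 58.8 and 19.7 in hypHSCs and 10.9, 0, 0, 15.4 and 0 in qHSCs (4.96 ± 1.03, adjusted p = 0.0022). hypHSC 5 came within a few counts of qHSC 4.

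The ADAMs called lower were *Adam11*, *Adam12*, *Adam19*, *Adam1a* and *Adam23*. *Adam19*, a meltrin that sheds neuregulins, had 94.3, 143, 89.8, 30.4 and 31.8 normalized counts in hypHSCs and 471, 259, 372, 593 and 393 in qHSCs, with no overlap (-2.61 ± 0.47, limma adjusted p = 0.000824). *Adam11*, which lacks the catalytic zinc site, had 16.2 and 54.9 in hypHSC 1 and 2, no read in hypHSC 3 to 5, and 250, 244, 89.8, 147 and 118 in qHSCs (-5.32 ± 1.14, adjusted p = 0.00266). *Adam23*, another non-catalytic member, was at 65.8 ± 36.6 against 314 ± 171 (-2.26, adjusted p = 0.00615). *Adam12* and *Adam1a* were low (means of 9.80 and 24.4 in hypHSCs, 52.1 and 77.0 in qHSCs), and DESeq2 and edgeR did not call them. The 5 not called included *Adam9* (650 ± 202 against 787 ± 272; -0.27, adjusted p = 0.467) and *Adam15* (576 ± 228 against 331 ± 104; 0.74, adjusted p = 0.109), both widely expressed, of which the latter was at 1.14 and called without hypHSC 4 and 5. The others were *Adam22*, *Adam4* and *Adam32*. Many of the other ADAMs are known from testis. Of the 34 entries, 13 had no read in any library, and the 7 read but not tested reached 47.2 normalized counts at most, *Adam5* in qHSC 5.

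Of the 13 ADAMTS proteases tested, 10 were called lower in hypHSCs, and *Adamts4*, *Adamts6* and *Adamts7* were not called. Quiescent stellate cell markers moved with this family: as given above, all 13 were called lower, and the part of stellate cell RNA in it was not tested. *Adamts13*, which cleaves von Willebrand factor and is known to be made by stellate cells, had 98.4, 50.7, 44.1, 0 and 0 normalized counts in hypHSCs and 5890, 6476, 4161, 3933 and 4254 in qHSCs. hypHSC 4 and 5 held no read of it, and the highest hypHSC library was far under the lowest qHSC library. The log2 fold change was -8.68 ± 1.26 (limma adjusted p = 0.000196), and it ranged from -9.44 to -7.79 when each library was left out in turn. Without hypHSC 4 and 5 it was -6.30.

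Of the proteoglycan-cleaving members, *Adamts1*, which cuts versican and aggrecan, had 71.4, 123, 133, 108 and 77.1 in hypHSCs and 4247, 6359, 2305, 3851 and 3108 in qHSCs. These values varied little within the hypHSCs (log2 fold change -5.22 ± 0.29, limma adjusted p = 2.61e-07). Of the others, *Adamts9* (115 ± 79.3 against 972 ± 155, SD, n = 5; -3.26), *Adamts15* (27.4 ± 29.3 against 235 ± 141; -3.52) and *Adamts5* (278 ± 115 against 1071 ± 247; -2.01) were called lower without overlap. *Adamts4* was not called (86.2 ± 51.6 against 107 ± 68.7; -0.43, adjusted p = 0.631).

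The 3 procollagen N-proteinases, which trim the amino end of fibrillar procollagens, were all called lower. *Adamts2* had 627, 598, 459, 498 and 248 normalized counts in hypHSCs and 3286, 3071, 2561, 1430 and 1802 in qHSCs (log2 fold change -2.32 ± 0.31, limma adjusted p = 0.000108). *Adamts14* had 29.7, 40.4, 2.49, 0 and 4.54 in hypHSCs and 399, 549, 444, 382 and 301 in qHSCs (-5.76 ± 0.91, adjusted p = 0.000351). *Adamts3* had 0 to 10.8 in hypHSCs and 93.7 to 207 in qHSCs (-5.14 ± 0.68, adjusted p = 0.000101). *Adamts2* kept the most RNA of the 3 in both groups, with 1.25 ± 0.426 FPKM (fragments per kilobase of exon, scaled to the reads on genes of each library) in hypHSCs and 7.89 ± 2.73 in qHSCs, beside 0.0643 ± 0.0772 and 2.19 ± 0.522 FPKM for *Adamts14*.

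*Adamts10*, which binds fibrillin microfibrils, was lower (371 ± 247 against 2399 ± 809; -3.04, limma adjusted p = 0.00119), as was *Adamts12*, known to cut COMP (32.9 ± 31.5 against 247 ± 82.1; -4.23, adjusted p = 0.0108). Both were lowest in hypHSC 4 and 5, and without these they were at -2.12 and -2.13. The COMP-cleaving *Adamts7* had 129, 222 and 199 normalized counts in hypHSC 1 to 3, no read in hypHSC 4 and 5, and 14.6 to 143 in qHSCs. It was not called (-0.68, adjusted p = 0.76) and was at 2.32 and called higher without hypHSC 4 and 5. *Adamts6* was not called (1.42, adjusted p = 0.227). Of the 6 not tested, *Adamts16* was read in 4 of 5 hypHSC libraries (20.7 to 40.4) and in no qHSC library, *Adamts8* and *Adamts20* had at most 17.5, and *Adamts17*, *Adamts18* and *Adamts19* had no read.

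**Figure D4:**
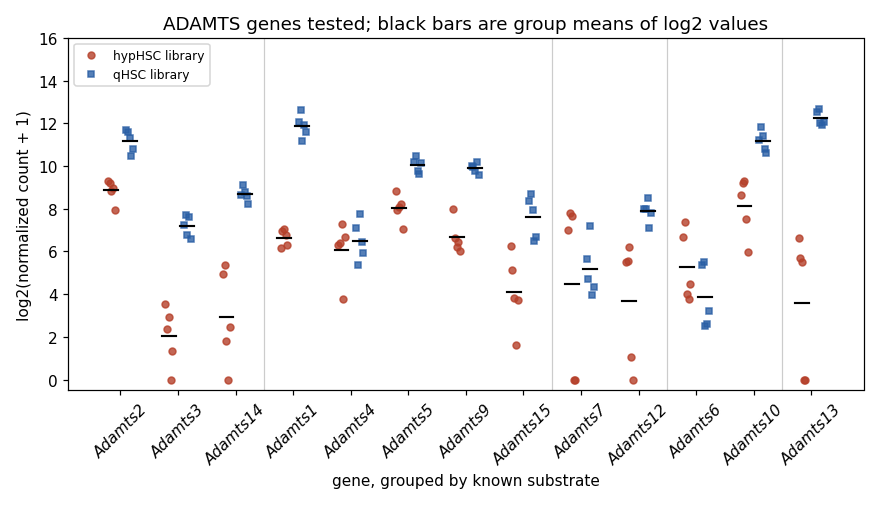
Log2(normalized count + 1) of the 13 ADAMTS genes tested in each library (points) with the group mean of the log2 values (black bars), ordered by known substrate: procollagens, proteoglycans, COMP, microfibril-linked members, von Willebrand factor. Red circles are hypHSC and blue squares qHSC libraries. In 10 genes every hypHSC library lies below every qHSC library, and *Adamts4*, *Adamts7* and *Adamts6* overlap.

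ADAMTS-like proteins have the matrix-binding parts of the ADAMTS family but no protease domain. *Adamtsl4*, which promotes fibrillin assembly, had 140, 173, 45.7, 24.1 and 43.9 normalized counts in hypHSCs and 1855, 2583, 1629, 1596 and 1639 in qHSCs (log2 fold change -4.78 ± 0.49, limma adjusted p = 1.76e-05). *Adamtsl3* had 6.21 to 96.8 in hypHSCs and 123 to 214 in qHSCs (-3.04 ± 0.63, adjusted p = 0.00212). *Adamtsl2*, a binder of LTBP1 and fibrillin, was at 1028 ± 806 against 4377 ± 2091 (-2.31, adjusted p = 0.00415), with hypHSC 1 (2187) above qHSC 4 (2094). *Adamtsl1*, or punctin, moved the other way and was the only one of the family called higher: 98.4, 150, 84.8, 105 and 150 in hypHSCs and 28.1, 23.0, 51.2, 4.28 and 7.49 in qHSCs (2.72 ± 0.62, adjusted p = 0.00391). *Adamtsl5* was not called (-0.35, adjusted p = 0.509).

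The 4 TIMPs differed from each other. *Timp1*, the inhibitor known for its induction in fibrosis, had 6824, 2831, 2127, 3786 and 1553 normalized counts in hypHSCs and 672, 458, 5311, 474 and 693 in qHSCs. All qHSC libraries but qHSC 3 were below every hypHSC library, and qHSC 3 was above 4 of the 5. The log2 fold change was 1.76 ± 0.65 (limma adjusted p = 0.0422), and the exact two-sided permutation p was 0.0556. Among the 10 fits with a library left out, 2 kept the call. It was lost without hypHSC 1, 2, 3 or 4 and without qHSC 1, 2, 4 or 5 (1.46 to 1.88), whereas without qHSC 3 the value was 2.41. It was also lost in DESeq2 (1.17), in edgeR (1.19), with equal totals (1.41), with the reference genes (0.82), with the 12-week hypHSCs only (1.39) and with the replicate number as a block (adjusted p = 0.0536).

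*Timp2*, which also takes part in the activation of pro-MMP2 by MT1-MMP, had 4913, 3292, 3098, 2530 and 2541 in hypHSCs and 3626, 3839, 3593, 2790 and 3172 in qHSCs. The groups overlapped and the log2 fold change was -0.09 ± 0.20 (limma adjusted p = 0.729). Scaled on the reference genes it was -1.03 and called lower. With upper-quartile scaling (0.02) and without hypHSC 4 and 5 (0.12) its sign changed. *Timp3*, the TIMP that binds to the matrix and also blocks ADAM17 and ADAMTS proteases, had 13829, 10296, 12954, 2544 and 3683 in hypHSCs and 26056, 29961, 20548, 17719 and 16725 in qHSCs. Every hypHSC library was below every qHSC library, with hypHSC 4 and 5 lowest (-1.62 ± 0.46, adjusted p = 0.0132). Without these 2 libraries the log2 fold change was -0.82, under the threshold of 1 (adjusted p = 0.00901). Other genes, antisense *Syn3* with the largest part, cover 21.3% of the *Timp3* exon bases. *Timp4* had no read in any library.

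**Figure D5:**
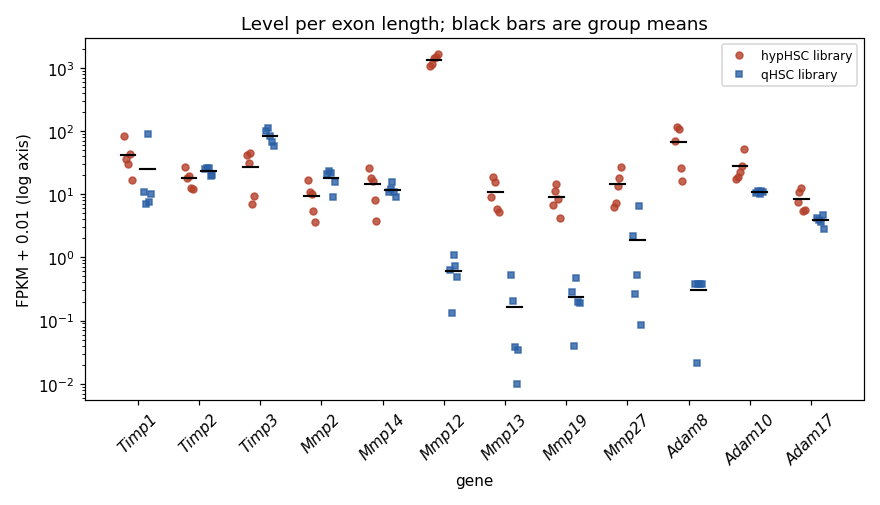
Level per exon length (FPKM + 0.01, log axis) of the 3 TIMPs read, *Mmp2*, *Mmp14* and 7 proteases called higher in hypHSCs, in each library, with group means as black bars. Red circles are hypHSC and blue squares qHSC libraries. The group means of *Timp1*, *Timp2*, *Mmp2* and *Mmp14* lie closer together than those of the 7 proteases. *Timp3* has a mean of 26.6 in hypHSCs against 83.5 in qHSCs, and *Mmp12* reaches a mean of 1339 in hypHSCs against 0.605 in qHSCs.

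Levels of different genes can be compared only per exon length, in FPKM. In hypHSCs *Mmp12* came first with 1339 ± 239 FPKM (SD, n = 5), followed by *Adam8* (67.0 ± 45.7), *Timp1* (42.0 ± 25.8), *Adam10* (27.8 ± 14.3), *Timp3* (26.6 ± 17.5), *Timp2* (17.7 ± 5.99), *Mmp14* (14.4 ± 8.74) and *Mmp27* (14.3 ± 8.32). Past *Mmp12*, neighbours in this order did not differ beyond their spread. In qHSCs the order was *Timp3* (83.5 ± 22.1), *Adamts13* (30.7 ± 7.28), *Timp1* (24.7 ± 35.6), *Timp2* (23.3 ± 3.42), *Adamts1* (22.1 ± 8.40), *Mmp2* (18.1 ± 5.78) and *Adamtsl2* (15.1 ± 7.34), and only the first stood apart from its neighbour. Summed over families, secreted MMPs other than *Mmp12* had 60.7 ± 14.5 FPKM in hypHSCs and 29.5 ± 6.52 in qHSCs, and ADAMs had 110 ± 41.6 and 26.9 ± 2.17. Without *Adam8* and *Adam10* the ADAM sum was 15.8 ± 5.37 in hypHSCs and 15.8 ± 2.04 in qHSCs. ADAMTS proteases summed to 4.72 ± 2.25 and 76.1 ± 20, and TIMPs to 86.4 ± 42.9 and 131 ± 44.0. The TIMP sums overlapped between the groups, whereas the ADAMTS sums did not.

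The 2 diet durations were set side by side within hypHSCs, without a test, because 2 against 3 libraries cannot reach p = 0.05 in an exact permutation test. *Mmp12* was lower in both 13-week libraries (314232 and 334781) than in the 12-week libraries (367986 to 564856), and *Mmp14* was higher (6620 and 4500 against 1115 to 3607). Several other members divided in the same way, among them *Mmp27* and *Adam10* (lower) and *Mmp2*, *Mmp23*, *Adamts2* and *Timp2* (higher). With 2 against 3 libraries, such a division can arise by chance. For *Adam8*, *Timp3* and *Adamts10* the 12-week hypHSC 3 was close to the 13-week libraries and hypHSC 4 and 5 were lower, so these members did not divide by weeks of diet.

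Of 54 genes that activate, anchor or inhibit these proteases or work beside them, 41 were tested, 10 (24.4%) were called higher, where 17.8% of all genes were, and 16 (39.0%) lower, where 21.7% of all genes were. Their median log2 fold change was -0.77, beside -0.20 over all genes. The values of these genes are given as a description, and no test set the list against other genes. In the plasminogen system, whose protease plasmin activates pro-MMPs, 4 of 7 tested were higher in limma and 3 in DESeq2 and in edgeR. The urokinase *Plau* (387 ± 158 against 5.80 ± 7.72 normalized counts; 6.56 ± 0.84, limma adjusted p = 8.31e-05) and its receptor *Plaur* (5030 ± 1030 against 52.2 ± 36.5; 7.51 ± 1.05) rose the most. The inhibitor *Serpine2* was higher (1.98), while plasminogen itself (*Plg*, -3.86) was lower. *Plat*, the tissue-type activator, was at 1948 ± 1235 against 662 ± 841 (1.92 ± 0.71, limma adjusted p = 0.0422), with overlapping groups since qHSC 3 had 2159. Its call was lost in DESeq2 (1.56) and edgeR (1.57), with equal totals (1.57), with the reference genes (0.98), with the 12-week hypHSCs only (1.33) and in each fit that left out 1 library other than hypHSC 5 or qHSC 3 (1.57 to 2.09). Of the proprotein convertases, which remove the prodomains of membrane-type MMPs, ADAMs and ADAMTS proteases, *Pcsk5* (-5.25) and *Pcsk6* (-3.43) were lower, the latter not in edgeR (-2.32, adjusted p = 0.0678). *Furin*, at 1.03, was at the threshold of 1. It was under it with equal totals (0.68), with the reference genes (0.09), without hypHSC 4 and 5 (0.86) and without hypHSC 2 (0.99), hypHSC 5 (0.86) or qHSC 1 (0.98).

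Among membrane-bound or secreted inhibitors and regulators, 5 of 7 tested were lower and 0 higher (limma, and also 0 at an unadjusted p under 0.05, in DESeq2 and in edgeR). *Reck*, a membrane-anchored MMP inhibitor, was at 27.4 ± 22.0 against 585 ± 114 normalized counts (-5.21 ± 0.93, limma adjusted p = 0.000832), and *Papln*, papilin, an inhibitor of procollagen N-proteinases, at 3.99 ± 4.59 against 330 ± 83.7 (-6.53 ± 0.65). *Pzp* (-2.12), *Sparc* (-2.32) and *Thbs2* (-2.13) were the others. The procollagen C-proteinase *Bmp1* (-2.33) and its enhancer *Pcolce* (-4.27) were lower, as the 3 N-proteinases were. Of the partners that mature or direct ADAMs, *Tspan5* (5.87) and *Tspan14* (2.26), tetraspanins that bind ADAM10, and *Rhbdf2* (1.23), the iRhom needed by ADAM17 in myeloid cells, were higher, and the related *Rhbdf1* (-3.45) was lower. *Rhbdf2* was not called with equal totals (0.88), with the reference genes (0.30) or with the 12-week hypHSCs only (limma adjusted p = 0.0962), nor was *Tspan14* with the last (1.59). *Cd44*, a surface anchor of MMPs, was higher (3.01) and *Bsg*, *Lrp1*, *Mrc2* and *Adamdec1* were not called. *Bsg* (-0.95) was called lower without hypHSC 4 (-1.25), without hypHSC 5 (-1.20), without both (-1.68), with equal totals (-1.30) and with the reference genes (-1.89). *Mrc2* (-1.26) was called lower without hypHSC 1 (-1.68), with the 12-week hypHSCs only (-1.83) and with the reference genes (-2.19). Among other proteases of the matrix and cell surface, *Htra1* was higher (2.60) and *Htra3* (-3.65), *Prss23* (-3.41), *Bace1* (-1.21) and *Bace2* (-3.68) were lower.

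Markers of other liver cells moved between the groups beside these results. Lipid-associated macrophage markers were called higher for 8 of 8 (523896 to 735313 normalized counts summed in hypHSCs, 5233 to 6832 in qHSCs), and resident Kupffer cell markers for 3 of 6. Within hypHSCs the core macrophage sum was lowest in hypHSC 5 (1195098), the library with the most *Mmp12* and *Adam10* and the least *Adam8*. Most of that sum was *Lyz2* (740305). Among hypHSC libraries, hypHSC 5 was lowest for most of the list. These were *Lyz2*, *Csf1r* (1833), *Adgre1*, *Cd14*, *Fcgr1*, *C1qa* (2231), *C1qb*, *Itgam*, *Cx3cr1* and *Tyrobp*. It was highest for *Ptprc* (30003), *C1qc* and *Fcer1g*, and in between for *Cd68*, *Mertk* and *Mpeg1*. Activated stellate cell and myofibroblast markers had 2 higher and 2 lower calls among 8 tested (12686 to 52717 in hypHSCs, 32443 to 56916 in qHSCs), and the lowest sums were again those of hypHSC 4 and 5. Mesothelial markers were called higher for 2 of 3 and B cell markers for 1 of 2, sinusoidal endothelial markers had 3 higher and 3 lower calls among 9, and hepatocyte markers (10 tested, 2 of them in 1 shared entry) and T and NK cell markers (2 tested) had none. The part of these cells in the protease values was not tested.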

How the data were processed

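RNA was sequenced in 10 libraries, 5 of sorted hypHSCs and 5 of sorted qHSCs. The authors made amplified cDNA with oligo-dT primers and sequenced both ends (59 bases each) without strand information. Reads were mapped to mm39 (GRCm39) with STAR, counted per gene with featureCounts (Subread 1.5.0) on FAST DB annotation, and divided by DESeq2 size factors. The deposited signal is therefore a normalized count. Undoing this division turned 100% of the values into whole reads (within 0.1 of a read), which served for depth, FPKM, edgeR and DESeq2. All other steps used the deposited values. FPKM used exon lengths from the GENCODE annotation (GRCm39). Limits from 3 reads cover counting error only.

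Log2(normalized count + 1) was compared with limma 3.58.1 (intensity trend, R 4.3.3) in all 14630 entries that carried a symbol and reached 10 normalized counts in 5 or more of the 10 libraries, with Benjamini-Hochberg adjustment over them. For genes low in a group, folds on this scale can be smaller or larger than those of DESeq2. In limma and DESeq2, *Mmp7* had 8.13 and 11.47, and *Mmp17* had -4.74 and -6.25. The limma value was the larger in size for others, among them *Adamts13* (-8.68 and -7.00) and *Adam11* (-5.32 and -3.58). The same held for *Mmp11* (-3.99 and -2.67) and *Adamts12* (-4.23 and -2.91). The ± after a log2 fold change is its standard error. Exact two-sided permutation tests used all 252 arrangements. Genes given with full values were all TIMPs, up to 8 called members per family and direction with no overlap and a mean of at least 100, and textbook members; the others were added to account for every member. The members, related genes, markers, motifs and tests were chosen with earlier results of these data known. Alternatives changed the pseudocount, filter, scaling, test (edgeR 4.0.16, DESeq2 1.42.0), samples and entries used, or added the replicate number as a block. The numbers were not taken to pair the libraries. The procedure was tested on simulated data. Protein sequences were not used here, and the values of 2 listed genes are not reported here.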

Additional observations from a re-analysis of the deposited data

Results flagged for a closer look

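In 33 members and both groups of 5 libraries, the library farthest from the others was compared with the group's range on the log2 scale (Dixon's critical value 0.71). Of 66 groups examined, 4 had such a library, and chance gives about 1 in 20 groups. All 4 were qHSC libraries. *Timp1* had 5311.12 normalized counts in qHSC 3, where the other qHSC libraries had 458 to 693. *Adam8* had 1.7 in qHSC 2, where the others had 52.0 to 60.7. *Mmp8* had 10.27 and *Mmp9* 29.09 in qHSC 4, where the others had 0 to 0.91 and no read. qHSC 4 was also the qHSC library with the most neutrophil (418), core macrophage (131779) and Kupffer cell (44861) markers in summed normalized counts, and their part in these values was not tested.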

How the results depend on the processing

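The members called were 13 higher and 23 lower. When each library was left out in turn they were 12 to 14 and 22 to 24, and over the other alternatives 10 to 16 and 18 to 29. The ends of these ranges came from scaling on the reference genes (10 higher, 29 lower), from leaving out hypHSC 4 and 5 (16 higher, 20 lower) and from asking for a mean of at least 100 normalized counts (11 higher, 18 lower), which tested fewer genes. DESeq2 and edgeR each called 12 higher and 20 lower, and without a filter there were 15 and 26. Related genes called were 8 to 10 higher and 16 to 17 lower when each library was left out, and 7 to 11 and 14 to 22 over the other alternatives (7 and 22 with the reference genes, 7 and 18 with equal totals and with the 12-week hypHSCs only). Over 31 named members and 24 alternatives, 705 values kept direction and call, 26 lost the call, 5 gained it and 4 changed sign. The sign changes were *Mmp14* at -0.16 with the 12-week hypHSCs only and at -0.54 with the reference genes, and *Timp2* at 0.02 with upper-quartile scaling and at 0.12 without hypHSC 4 and 5. The calls of *Timp1*, *Mmp24*, *Timp3*, *Adam10* and *Adam17* that were lost are given with their values above, and the causes were not tested.

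Replicate numbers are shared between the groups, but same-numbered libraries deviated together only weakly (correlations of 0.00815 to 0.129). With the replicate block, 12 members were called higher and 23 lower, and the call lost among the named members was that of *Timp1* (1.76, adjusted p = 0.0536). Reads of overlapping or antisense genes cannot be told apart, and members under the floor of 3 reads were not detectable at this depth. Diet, age, digestion, antibiotics and gate differed together.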
